A study of Rattus norvegicus with 9 samples.

Results

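The proteasome genes described here were the 48 protein-coding genes, of 35360 genes in the deposited count table, whose symbol began with Psma, Psmb, Psmc, Psmd, Psme, Psmf or Psmg and ended in a number. They were grouped by known role into the 20S core, the immunoproteasome, the 19S regulatory particle, the activators and the inhibitor Psmf1, and the assembly chaperones. Fractured rat femora were sampled at the middle of the fracture, and their poly-A RNA was sequenced in 9 libraries. The Mg-ALN@Gel group (3 libraries) received a bone adhesive gel carrying a metal-organic framework of magnesium and the bisphosphonate ALN. The ALN+Gel group (3 libraries) received the gel with ALN, and the Gel group (3 libraries), labelled as the control, received the gel alone. All 3 groups share the fracture and the gel, and the labels give no sex, age, strain, dose or time. The labels do not say that the libraries of a group came from separate animals, so a p-value here covers only how far these samples spread, part of which may be technical.

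The 26S proteasome degrades proteins tagged with ubiquitin. Its barrel-shaped 20S core is built of alpha rings, which gate the entry, and beta rings, which hold the proteolytic sites, while the 19S particle binds ubiquitin, unfolds the substrate with a ring of ATPases and removes the ubiquitin with its lid. Interferon-gamma induces alternative catalytic subunits, which form the immunoproteasome and favour peptides for MHC class I, and in bone the proteasome is known for its turnover of regulators of osteoblasts and osteoclasts such as Runx2 and IκB.

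Libraries held between 13388689 and 18763270 counts, and the common biological coefficient of variation between libraries was 51.4%. Values of a group are given in the order of libraries 1, 2 and 3. Libraries differed in ways the groups do not explain: mitochondrially encoded genes took 11.2, 10.6 and 31.6% in Mg-ALN@Gel, 39.5, 15.6 and 7.61% in ALN+Gel, against 17.5, 5.40 and 4.16% in Gel. The shares were highest in 2 libraries, 1 of ALN+Gel (number 1) and 1 of Mg-ALN@Gel (number 3). Summed osteoblast and osteocyte markers lay at 35124 to 44940.4 CPM in Mg-ALN@Gel, 25416 to 37442 CPM in ALN+Gel and 52888 to 112154 CPM in Gel. These markers were abundant in each library, and their sum was lower in each treated library than in each Gel library. Single markers were divided in ALN+Gel against Gel, with 5 of 12 positive and 7 negative (log2 fold changes of −1.94 to 3.08). In Mg-ALN@Gel against Gel 0 of 12 were positive. Gel library 3 stood apart with 10467 CPM of skeletal muscle markers, against 8.83 to 2552 CPM in the other libraries. Values in CPM, counts relative to library size, use library sizes scaled by TMM, and log2 fold changes with their standard errors come from edgeR's quasi-likelihood fit of all 9 libraries.

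In CPM with TMM scaling, proteasome RNA was higher in both treated groups than in Gel, across nearly all members and by a modest amount each. No member passed the test over all genes. The summed level of the 48 genes was 4754, 3717 and 3726 CPM in Mg-ALN@Gel, 4196, 3701 and 3253 CPM in ALN+Gel, against 2874, 3044 and 2840.0 CPM in Gel. Each treated library lay above each Gel library, and the 2 treated groups overlapped. Without TMM scaling, over raw library totals, the sum was 4387, 4126 and 3127 CPM in Mg-ALN@Gel, 3212, 3714 and 3697 CPM in ALN+Gel, against 2885, 3361 and 3383 CPM in Gel. On that scale the libraries with the highest mitochondrial shares, Mg-ALN@Gel 3 and ALN+Gel 1, lay within the Gel range. In mean ± SD, the sum was 4066 ± 596 CPM in Mg-ALN@Gel, 3716 ± 472 CPM in ALN+Gel and 2920 ± 109 CPM in Gel (n = 3 each). Gel had the lowest group mean for 42 of the 45 members that passed the filter on low counts, Mg-ALN@Gel had the highest mean for 34 and ALN+Gel for 11. In bulk RNA, fewer cells of a type and less RNA per cell cannot be told apart. The 3 members that did not pass the filter were Psma8, an alpha subunit of the testis, Psmb11, the catalytic subunit of the thymus, and Psme1, and they had at most 4 counts in any library.

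**Figure D1:**
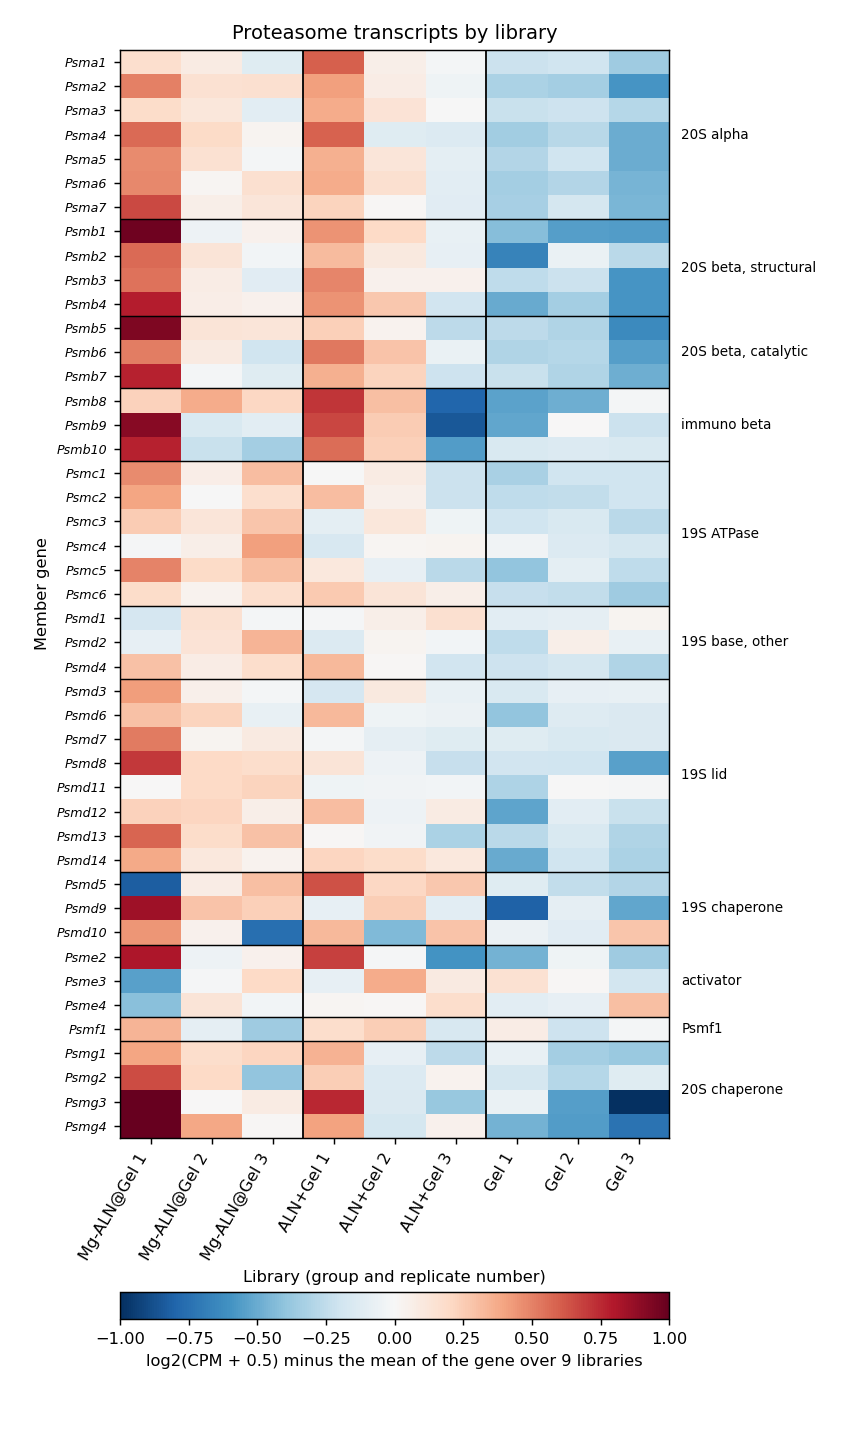
Level of each of the 45 members (rows, ordered by role) in each of the 9 libraries (columns). Colour gives log2(CPM + 0.5) minus the mean of that gene over the 9 libraries, and values beyond 1 in size take the end colour. Most rows are above their mean in library 1 of both treated groups and below it in the 3 Gel libraries.

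Library 1 of Mg-ALN@Gel had the highest CPM for 28 of the 45 members and library 1 of ALN+Gel for 10, as the plot of levels by library shows. At the low end, Gel library 3 had the lowest CPM for 21 members and Gel library 1 for 10. Few libraries therefore set the extremes of most members.

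In ALN+Gel against Gel, 0 of 45 members passed an adjusted p of 0.05 (edgeR quasi-likelihood test, Benjamini-Hochberg), as did 0 of 15460 genes (0%). Adjusted p-values of the members lay between 0.544 and 0.992. At an unadjusted p under 0.05, 11 members were higher and 0 lower, against 5.78% of all genes that were higher. DESeq2 and limma-voom with quality weights called 133 and 263 genes in this comparison, none of them a member. At an unadjusted p under 0.05, in either direction, DESeq2 had 8 members against 10.2% of all genes, limma-voom 15 against 18.7% and edgeR 11 against 8.20%. For 19 members each ALN+Gel library lay above each Gel library, against 11.1% of all genes, and without ALN+Gel library 3 this held for 34 members and 18.2% of genes. All 45 log2 fold changes were positive, at 0.02 to 0.72 with a median of 0.39, while the median over all genes tested was −0.0014. With RLE scaling Psmd2 and Psme4 turned negative, and with unscaled library totals, which lower each log2 fold change by 0.20, 33 members stayed positive and 14 did not overlap, against 7.04% of all genes. The count at an unadjusted p under 0.05 rested on single libraries. It was 0 without ALN+Gel library 2 (6.74% of all genes in that fit, either direction) or Gel library 3 (4.16%). It was 1 if the library dropped was ALN+Gel 1 (4.12%), Gel 2 (4.58%) or Mg-ALN@Gel 2 (7.01%). Dropping Gel 1 gave 3 (11.8%) and dropping ALN+Gel 3 gave 7 (10.5%). The share of all genes was thus also lower than 8.20% in 5 of these 7 fits. The median was 0.24 without ALN+Gel library 1.

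In Mg-ALN@Gel against Gel, 0 of 45 members and 0 of 15460 genes (0%) passed the adjusted p in edgeR's quasi-likelihood test, with adjusted p-values of 0.530 to 0.971 for the members. At an unadjusted p under 0.05, 22 members were higher and 0 lower, against 5.43% of all genes that were higher. DESeq2 called 51 genes and limma-voom 0, with no member among them. Both tools gave 23 members an unadjusted p under 0.05 in either direction, against 12.3% of all genes in DESeq2 and 14.4% in limma-voom, and edgeR's share of all genes was 9.31%. For 34 members each Mg-ALN@Gel library lay above each Gel library, against 9.76% of all genes. Of the 45 log2 fold changes, 42 were positive, and the range was −0.14 to 1.20 with a median of 0.53, against −0.03 over all genes. With unscaled library totals, which lower each log2 fold change by 0.21, 39 members stayed positive and 11 did not overlap, where 3.64% of all genes did so. The count of 22 became 4 if Gel library 3 was dropped, where 4.91% of all genes had such a p in either direction, and 13 (8.08%) if Gel library 1 was dropped. It was 14 if Gel library 2 (7.61%) or library 1 (6.01%) or 2 (9.91%) of Mg-ALN@Gel was dropped.

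Between the treated groups, Mg-ALN@Gel relative to ALN+Gel, 0 of 45 members and 0 of 15460 genes (0%) passed the adjusted p in edgeR's test, with members at 0.510 to 0.996. One lid subunit, Psmd13, was higher at an unadjusted p under 0.05, against 3.76% of all genes, which is near 1 in 45. DESeq2 called 184 genes and limma-voom 2, none a member, and each gave 2 members an unadjusted p under 0.05, against 12.2% and 15.0% of all genes. In 6 members each Mg-ALN@Gel library lay above each ALN+Gel library, against 6.76% of all genes, and without ALN+Gel library 1 this held for 13 members and 12.1% of genes. The log2 fold changes ran from −0.46 to 0.49 with 34 of 45 positive and a median of 0.13, against −0.04 over all genes. That median was −0.02, 0.23 and 0.20 if Mg-ALN@Gel library 1, 2 or 3 was dropped, and 0.24 or 0.03 if ALN+Gel library 1 or 3 was dropped, so its sign rested on Mg-ALN@Gel library 1. The joint test of the 3 groups called 0 genes (0%) in edgeR, and 13 members had an unadjusted p under 0.05 there, against 9.29% of all genes. The 2 comparisons with Gel share the Gel libraries, so their values for a member are not independent.

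**Figure D2:**
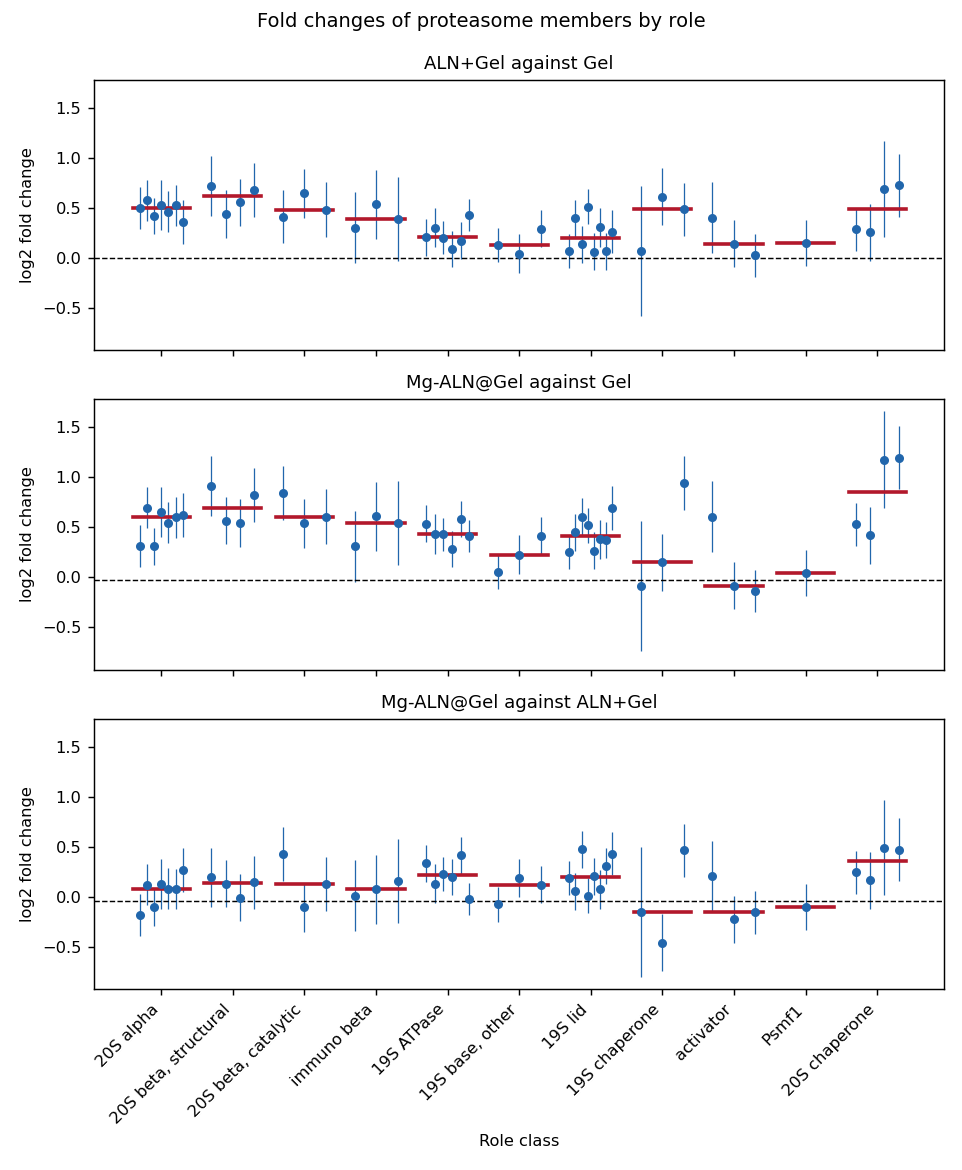
Log2 fold change of each of the 45 members (points, with bars of 1 standard error from edgeR's fit) by role class in the 3 comparisons. Red lines are class medians and the dashed line is the median over 15460 genes. Against Gel the core classes have medians of 0.48 to 0.62 in ALN+Gel and 0.60 to 0.69 in Mg-ALN@Gel, and the activators have medians of 0.14 (ALN+Gel) and −0.09 (Mg-ALN@Gel).

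In ALN+Gel against Gel, the 14 subunits of the constitutive 20S core were the members most uniformly higher. Their median log2 fold change there was 0.51, with 12 of 14 not overlapping, against 11.1% of all genes. In Mg-ALN@Gel against Gel it was 0.60, with 14 of 14 not overlapping, against 9.76% of all genes. The 6 ATPases and 8 lid subunits of the 19S particle were also free of overlap in that comparison. These counts use TMM scaling, and fewer members were free of overlap with unscaled library totals. Between Mg-ALN@Gel and ALN+Gel the median was 0.12, and none of the 14 was free of overlap. Per length, the core spanned 31.8 TPM (Psma4) to 293 TPM (Psmb4) in the Gel group mean, a 19S subunit 42.7 TPM (Psmd11) to 144 TPM (Psmc3).

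The 7 alpha subunits, which form the gated outer rings, did not overlap with Gel in ALN+Gel (11.1% of all genes) or Mg-ALN@Gel (9.76%). Their log2 fold changes were 0.36 to 0.57 in ALN+Gel against Gel and 0.31 to 0.69 in Mg-ALN@Gel against Gel. Psma1 had 89.9, 84.6 and 73.5 CPM in Mg-ALN@Gel, 121, 83.1 and 78.6 CPM in ALN+Gel, against 68.7, 69.5 and 62.2 CPM in Gel. It was among the members with the lowest value in Mg-ALN@Gel relative to ALN+Gel, at −0.19 ± 0.21 on the log2 scale, with overlapping groups. Psma2, the alpha subunit with the highest fold change, had 133, 104 and 105 CPM in Mg-ALN@Gel, 125, 98.8 and 90.7 CPM in ALN+Gel, against 75.3, 73.8 and 61.9 CPM in Gel. Both treated groups lay above Gel, and the log2 fold change was 0.69 ± 0.20 for Mg-ALN@Gel and 0.57 ± 0.20 for ALN+Gel.

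Among the structural beta subunits, Psmb1 had 348, 171 and 183 CPM in Mg-ALN@Gel, 242, 204 and 168 CPM in ALN+Gel, against 132, 121 and 120.1 CPM in Gel. The value in Mg-ALN@Gel library 1 was the highest by far, and each treated library was still above each Gel library. Its log2 fold change was 0.72 ± 0.30 in ALN+Gel against Gel (unadjusted p = 0.0384, adjusted p = 0.585) and 0.91 ± 0.30 in Mg-ALN@Gel against Gel (unadjusted p = 0.0134, adjusted p = 0.53), both from edgeR. Psmb4, the most abundant member per length, had 301, 182 and 179 CPM in Mg-ALN@Gel, 238, 210.0 and 153 CPM in ALN+Gel, against 122, 137 and 116 CPM in Gel. Its groups were ordered the same way, with log2 fold changes of 0.82 ± 0.27 for Mg-ALN@Gel and 0.68 ± 0.27 for ALN+Gel against Gel.

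The 3 constitutive proteases are Psmb5 (chymotrypsin-like), Psmb6 (caspase-like) and Psmb7 (trypsin-like). Psmb5 had 137, 78.6 and 78.2 CPM in Mg-ALN@Gel, 84.9, 73.8 and 59.8 CPM in ALN+Gel, against 59.9, 58.3 and 46.0 CPM in Gel. The Mg-ALN@Gel libraries lay above the Gel libraries, while ALN+Gel library 3 lay just below Gel library 1. The log2 fold change was 0.84 ± 0.27 for Mg-ALN@Gel and 0.41 ± 0.27 for ALN+Gel, each against Gel. Psmb6 had 121, 90.2 and 73.7 CPM in Mg-ALN@Gel, 123, 103 and 80.8 CPM in ALN+Gel, against 68.9, 69.6 and 57.7 CPM in Gel. Both treated groups lay above Gel, at 0.54 ± 0.24 for Mg-ALN@Gel and 0.65 ± 0.24 for ALN+Gel on the log2 scale. Psmb7 had 125, 72.5 and 67.5 CPM in Mg-ALN@Gel, 94.1, 85.7 and 63.3 CPM in ALN+Gel, against 62.6, 59.5 and 52.2 CPM in Gel. These values also did not overlap with Gel, at 0.61 ± 0.27 for Mg-ALN@Gel and 0.48 ± 0.27 for ALN+Gel. Psmb7 overlaps Nek6, which had 461 to 2354 counts, on the opposite strand, and the protocols do not mention strand marking, so its counts are uncertain.

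The immunoproteasome subunits replace these proteases: Psmb8 takes the place of Psmb5, Psmb9 of Psmb6 and Psmb10 of Psmb7. In the coordinates of the deposited table, whose build is not given in the sources used here, Psmb8 lies at chr20:3990613-3993769, plus strand, Psmb9 at chr20:3973420-3978845, minus strand and Psmb10 at chr19:37909546-37912027, minus strand. Their mean levels were also above Gel in both treated groups, but none of the 3 was free of overlap in ALN+Gel against Gel, and 1 was in Mg-ALN@Gel against Gel. Psmb8 had 48.4, 53.4 and 47.6 CPM in Mg-ALN@Gel, 67.8, 50.7 and 23.5 CPM in ALN+Gel, against 28.3, 29.2 and 40.5 CPM in Gel. The 3 Mg-ALN@Gel libraries lay close together and above all Gel libraries, at 0.61 ± 0.35 on the log2 scale (unadjusted p = 0.112, adjusted p = 0.577 in edgeR's test). In ALN+Gel, library 1 was the highest and library 3 the lowest of all 9, and the log2 fold change was 0.54 ± 0.35.

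Psmb9 had 70.0, 33.2 and 34.2 CPM in Mg-ALN@Gel, 59.0, 44.2 and 20.3 CPM in ALN+Gel, against 25.7, 37.0 and 31.8 CPM in Gel. All 3 groups overlapped, with 1 high library in Mg-ALN@Gel and the lowest value in ALN+Gel library 3, at 0.54 ± 0.42 and 0.39 ± 0.42 against Gel for Mg-ALN@Gel and ALN+Gel. Psmb10 had 91.0, 45.6 and 42.0 CPM in Mg-ALN@Gel, 78.9, 62.8 and 35.9 CPM in ALN+Gel, against 47.8, 48.3 and 48.0 CPM in Gel. The Gel values were nearly equal, while both treated groups had libraries above and below them, and the log2 fold changes against Gel were 0.31 ± 0.36 for Mg-ALN@Gel and 0.30 ± 0.36 for ALN+Gel. The sign for Mg-ALN@Gel rests on library 1, since the value was −0.13 without it.

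**Figure D3:**
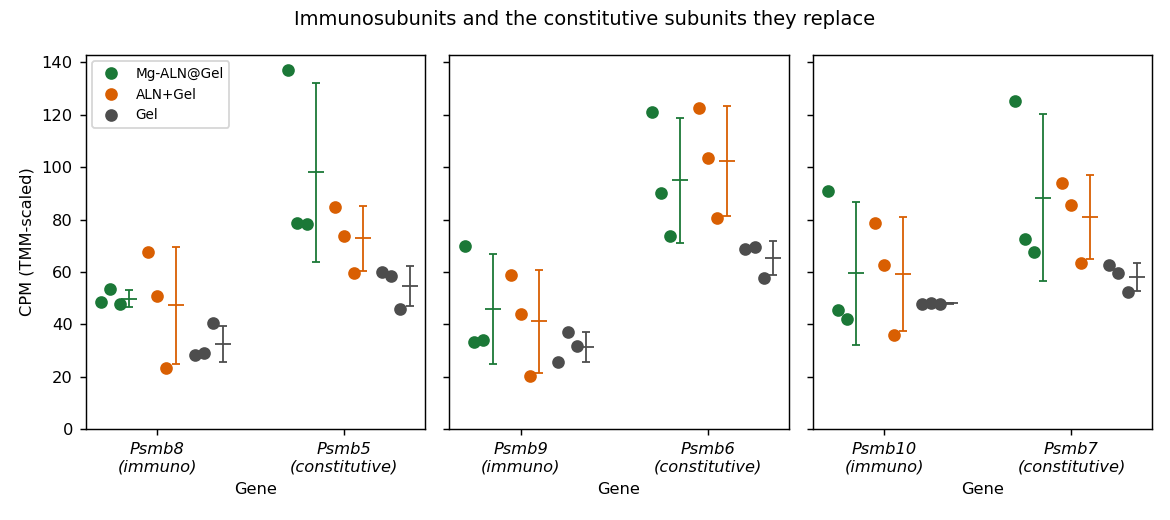
CPM of each immunosubunit and of the constitutive protease it replaces, by library (points, replicates 1 to 3 from left to right) with the mean and SD of 3 libraries per group. Psmb5, Psmb6 and Psmb7 lie above Gel in all Mg-ALN@Gel libraries, while the immunosubunits spread widely in ALN+Gel.

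Per length, the immunosubunit's share of its pair overlapped between the groups for 2 of the 3 pairs. Psmb8 made up 13.0, 22.3 and 20.5% in Mg-ALN@Gel, 25.2, 22.5 and 14.3% in ALN+Gel, against 16.6, 17.4 and 27.1% in Gel of the summed TPM of Psmb8 and Psmb5. Psmb9 made up 21.4, 14.8 and 18.0% in Mg-ALN@Gel, 18.5, 16.8 and 10.6% in ALN+Gel, against 15.0, 20.1 and 20.6% in Gel of the pair with Psmb6. For both pairs the group ranges overlapped. Psmb10 held 55.3, 51.7 and 51.5% in Mg-ALN@Gel, 58.8, 55.5 and 49.1% in ALN+Gel, against 56.5, 58.0 and 61.0% in Gel of the pair with Psmb7. That pair alone had every Mg-ALN@Gel library below every Gel library, with means of 52.8 ± 2.16% and 58.5 ± 2.27% (SD, n = 3 each), and 3 pairs were looked at. The share of Psmb10 is uncertain, since the counts of Psmb7 are uncertain through its overlap with Nek6. No test was made of these shares, and 3 libraries against 3 cannot give an exact permutation p under 0.1.

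Upstream sequences of 3 catalytic genes and of the activator gene Psme2 are shown because interferon-induced and constitutive proteasome genes are known to answer to different signals, interferon regulatory factors for the first and the Nrf factors and NF-Y for the second. RefSeq promoters of assembly GRCr8 were matched for 43 of the 48 members. The 4 shown hold a match to 1 of the 2 motifs marked, and Psmb7, Psmb8 and Psmb9 hold none in the same stretch. Each sequence below is the 120 bases before the annotated start, read 5′ to 3′ on the strand of the gene. Capitals mark a tandem GAAA, with any 2 bases between its copies and known as a core of the interferon-stimulated element, in Psmb10 and Psme2, and TGACNNNGC, a core of the antioxidant response element, in Psmb5 and Psmb6.
Psmb10, chr19:50743293-50743412, minus strand: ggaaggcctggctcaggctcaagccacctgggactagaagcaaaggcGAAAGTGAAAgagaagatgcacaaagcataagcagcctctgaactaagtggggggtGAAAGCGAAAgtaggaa
Psme2, chr15:33052752-33052871, minus strand: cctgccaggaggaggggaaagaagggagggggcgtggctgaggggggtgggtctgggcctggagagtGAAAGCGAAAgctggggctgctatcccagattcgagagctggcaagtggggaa
Psmb5, chr15:32047380-32047499, minus strand: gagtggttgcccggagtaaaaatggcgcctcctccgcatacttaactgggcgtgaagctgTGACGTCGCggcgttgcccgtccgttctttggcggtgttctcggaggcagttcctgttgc
Psmb6, chr10:55737768-55737887, plus strand: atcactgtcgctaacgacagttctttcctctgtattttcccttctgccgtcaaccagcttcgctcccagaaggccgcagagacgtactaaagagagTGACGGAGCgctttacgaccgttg

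Within 250 bases upstream, on either strand, the tandem GAAA was present in 5 of 43 members (11.6%) and in 3.41% of 33469 promoters. Those 5 were Psmb10 (with 2 matches), Psme2, Psma4, Psmb3 and Psmd7. The Psmb8 match runs across the start site, from −4 to 5, and Psmb9 had none in the window. TGACNNNGC was found in 7 of 43 members (16.3%) and 10.1% of promoters, namely Psma3, Psmb2, Psmb5, Psmb6, Psmd1, Psmd9 and Psme4. CCAAT was found in 20 of 43 members (46.5%) and 34.0% of promoters, and TTCNNNGAA, a core of STAT sites, in 4 of 43 (9.3%) and 7.67%. In Psmb2 a CCAAT match and the TGACNNNGC match share 1 base. A match is a description of the letters only.

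The 17 subunits of the 19S particle had a smaller median fold change against Gel than the core, and the larger of their own 2 medians was that of Mg-ALN@Gel. These differences were not tested. Their median log2 fold change was 0.20 in ALN+Gel against Gel, with 5 of 17 not overlapping, against 11.1% of all genes. In Mg-ALN@Gel against Gel it was 0.41, with 15 of 17 not overlapping, against 9.76% of all genes. In Mg-ALN@Gel relative to ALN+Gel it was 0.19, with 15 of 17 positive. All 6 members that did not overlap between the treated groups were 19S subunits, and 6.76% of all genes were higher in this way. The 6 were the ATPases Psmc3 and Psmc5 and the lid subunits Psmd7, Psmd8, Psmd11 and Psmd13. In summed CPM, the 17 subunits had 1721 ± 102 in Mg-ALN@Gel, 1497 ± 73.6 in ALN+Gel and 1311 ± 56.3 in Gel, while the 14 core subunits had 1720 ± 423, 1604 ± 286 and 1106 ± 80.7 (SD, n = 3 each). The core sums thus spread more within the treated groups than the 19S sums.

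The 6 ATPases, which unfold the substrate, had log2 fold changes of 0.08 to 0.43 in ALN+Gel against Gel and 0.28 to 0.58 in Mg-ALN@Gel against Gel. Psmc5 had 99.9, 80.9 and 87.1 CPM in Mg-ALN@Gel, 75.9, 66.7 and 58.7 CPM in ALN+Gel, against 53.7, 65.9 and 59.2 CPM in Gel. Here the Mg-ALN@Gel libraries lay above all others, and ALN+Gel and Gel overlapped. Its log2 fold change was 0.41 ± 0.18 in Mg-ALN@Gel relative to ALN+Gel.

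Of the other base subunits, Psmd2, a scaffold of the base, had 171, 199 and 229 CPM in Mg-ALN@Gel, 165, 185 and 177 CPM in ALN+Gel, against 152, 188 and 172 CPM in Gel. All groups overlapped, with log2 fold changes of 0.23 ± 0.19 for Mg-ALN@Gel and 0.04 ± 0.19 for ALN+Gel against Gel. Psmd1, the other large scaffold, was at 0.05 ± 0.17 for Mg-ALN@Gel and 0.13 ± 0.17 for ALN+Gel, and it overlaps Htr2b (29 to 803 counts) on the opposite strand. Psmd4, a ubiquitin receptor, was at 0.41 ± 0.19 and 0.29 ± 0.19 for Mg-ALN@Gel and ALN+Gel against Gel.

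Among the 8 lid subunits, Psmd13 had 138, 104 and 112 CPM in Mg-ALN@Gel, 92.4, 89.6 and 73.4 CPM in ALN+Gel, against 76.2, 82.3 and 74.5 CPM in Gel. Every Mg-ALN@Gel library was above every ALN+Gel and Gel library, whose ranges overlapped. Its log2 fold change was 0.47 ± 0.19 in Mg-ALN@Gel relative to ALN+Gel (unadjusted p = 0.0328, adjusted p = 0.51) and 0.60 ± 0.19 in Mg-ALN@Gel against Gel (unadjusted p = 0.0104, adjusted p = 0.53), in edgeR's test. It lies at chr1:213636093-213648488, plus strand in the deposited table. Psmd14, the deubiquitinase of the lid, had 67.6, 56.0 and 53.2 CPM in Mg-ALN@Gel, 60.5, 59.2 and 56.0 CPM in ALN+Gel, against 36.6, 45.3 and 41.6 CPM in Gel. Both treated groups lay above Gel, by 0.52 ± 0.18 for Mg-ALN@Gel and 0.51 ± 0.18 for ALN+Gel on the log2 scale, and they overlapped each other.

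Psmd7 and Psmd3 were the lid subunits with the lowest log2 fold change in ALN+Gel against Gel. Psmd7 had 105, 74.8 and 77.7 CPM in Mg-ALN@Gel, 72.2, 68.8 and 67.3 CPM in ALN+Gel, against 67.3, 65.8 and 66.2 CPM in Gel. The ALN+Gel and Gel values were nearly the same, at 0.06 ± 0.18 on the log2 scale, and the Mg-ALN@Gel values were above both. Psmd3 had 116, 89.7 and 85.2 CPM in Mg-ALN@Gel, 77.2, 92.7 and 82.3 CPM in ALN+Gel, against 77.9, 81.8 and 82.1 CPM in Gel. Mg-ALN@Gel lay just above Gel (0.27 ± 0.18), and ALN+Gel overlapped with both (0.06 ± 0.18 against Gel).

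Per length, the summed TPM of the core over that of the 19S particle was 2.02, 1.57 and 1.44 in Mg-ALN@Gel, 2.04, 1.76 and 1.62 in ALN+Gel, against 1.51, 1.46 and 1.32 in Gel. All 3 ALN+Gel libraries lay above all Gel libraries, and Mg-ALN@Gel library 3 lay within the Gel range. The ratio averaged 1.67 ± 0.306 in Mg-ALN@Gel, 1.81 ± 0.213 in ALN+Gel and 1.43 ± 0.0978 in Gel (SD, n = 3 each), and it was not tested.

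**Figure D4:**
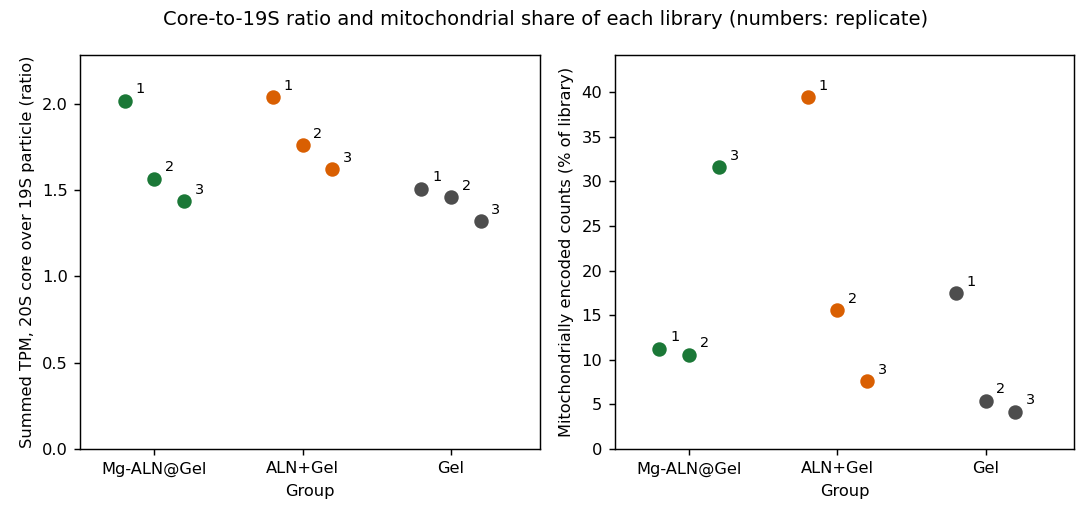
Left, ratio of the summed TPM of the 14 constitutive core subunits to that of the 17 subunits of the 19S particle in each library. Right, share of mitochondrially encoded counts in the same libraries. The ratio is 2.02 and 2.04 in library 1 of Mg-ALN@Gel and of ALN+Gel and 1.32 to 1.51 in Gel. The mitochondrial share is 39.5% in ALN+Gel library 1 and 31.6% in library 3 of Mg-ALN@Gel.

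Gene length moved with these differences. Core genes were short, with a median length of 965.5 bases, against 1584 bases for the 19S particle. Over all tested genes, those under 1200 bases had a median log2 fold change of 0.27 in ALN+Gel against Gel, those of 1200 to 3500 bases 0.02 and those over 3500 bases −0.16. In Mg-ALN@Gel against Gel these medians were 0.37, 0.02 and −0.27, and in Mg-ALN@Gel relative to ALN+Gel 0.06, −0.02 and −0.16. Among members, the 17 under 1200 bases had a median of 0.50 in ALN+Gel against Gel, the 25 of 1200 to 3500 bases 0.26 and the 3 longer ones 0.42. For Mg-ALN@Gel against Gel the members' medians were 0.56, 0.43 and 0.31. Members were thus above other genes of their length class in both comparisons with Gel, by less than against all genes among the short ones. The part of length in the difference between core and 19S was not tested.

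**Figure D5:**
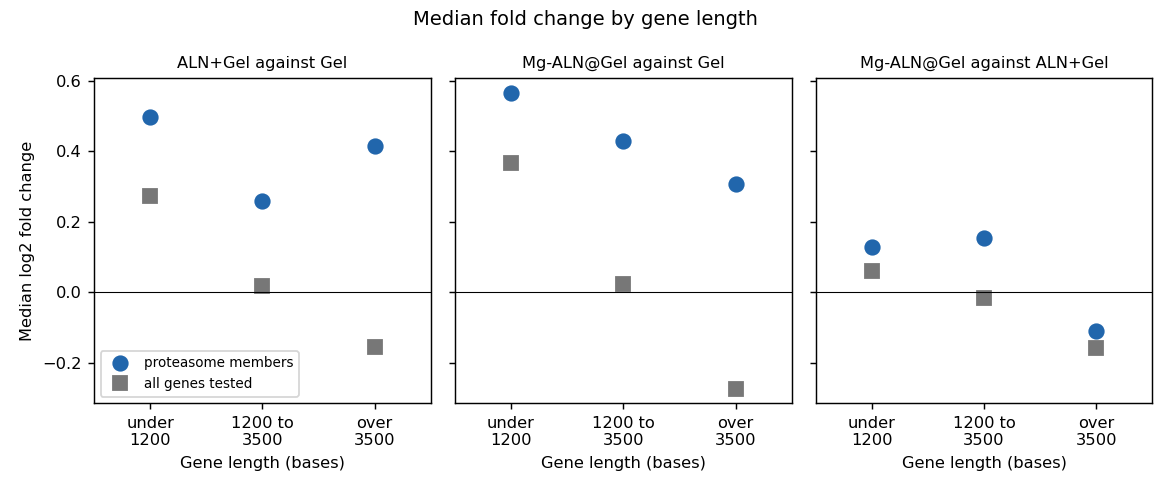
Median log2 fold change of the proteasome members (circles) and of all 15460 tested genes (squares) in 3 classes of gene length, for the 3 comparisons. Both are lower for longer genes in Mg-ALN@Gel against Gel, and members lie above all genes in every class of each comparison.

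In each comparison the member with the highest log2 fold change was an assembly chaperone, Psmg4 or Psmg3, though not all chaperones were high. Psmg1 to Psmg4 assist the assembly of the 20S core, and their median log2 fold change was 0.49 in ALN+Gel against Gel, 0.85 in Mg-ALN@Gel against Gel and 0.36 in Mg-ALN@Gel relative to ALN+Gel. Psmg4 had 33.8, 20.4 and 15.7 CPM in Mg-ALN@Gel, 20.7, 13.7 and 16.0 CPM in ALN+Gel, against 11.03, 10.4 and 9.09 CPM in Gel. Both treated groups lay above Gel and overlapped each other. Its log2 fold change of 1.20 ± 0.32 in Mg-ALN@Gel against Gel was the highest of the members (unadjusted p = 0.00426, adjusted p = 0.53 in edgeR's test), and it was 0.72 ± 0.31 in ALN+Gel against Gel. Psmg3 had 49.9, 18.8 and 19.9 CPM in Mg-ALN@Gel, 32.0, 16.9 and 14.3 CPM in ALN+Gel, against 17.9, 12.6 and 8.59 CPM in Gel. Mg-ALN@Gel library 1 was far above the rest, ALN+Gel overlapped with Gel, and the log2 fold changes against Gel were 1.18 ± 0.48 and 0.69 ± 0.48 for Mg-ALN@Gel and ALN+Gel. In Mg-ALN@Gel relative to ALN+Gel the value for Psmg3 was 0.49 ± 0.48, and −0.12 without Mg-ALN@Gel library 1.

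Psmd5, Psmd9 and Psmd10 assist the assembly of the 19S base and did not share a pattern. Psmd9 had 41.1, 27.6 and 26.7 CPM in Mg-ALN@Gel, 21.3, 27.0 and 21.0 CPM in ALN+Gel, against 12.7, 21.2 and 15.6 CPM in Gel. Mg-ALN@Gel lay above Gel, at 0.94 ± 0.27 (unadjusted p = 0.0065, adjusted p = 0.53 in edgeR's test), and ALN+Gel overlapped with both, at 0.48 ± 0.27 against Gel. Psmd5 had 23.2, 43.7 and 51.2 CPM in Mg-ALN@Gel, 64.6, 48.0 and 50.1 CPM in ALN+Gel, against 38.0, 34.8 and 33.7 CPM in Gel. ALN+Gel lay above Gel (0.61 ± 0.28), and the lowest value of all 9 was in Mg-ALN@Gel library 1, with −0.46 ± 0.28 in Mg-ALN@Gel relative to ALN+Gel. Psmd10 was close to the floor, with 8 to 26 counts a library, and its log2 fold change of −0.08 ± 0.65 in Mg-ALN@Gel against Gel carries a wide error.

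Activators bind the ends of the core in place of the 19S particle. Psme2, the beta subunit of the interferon-induced 11S activator, had 129.7, 71.3 and 76.3 CPM in Mg-ALN@Gel, 119, 73.3 and 48.7 CPM in ALN+Gel, against 53.2, 71.7 and 57.6 CPM in Gel. All groups overlapped, at 0.60 ± 0.36 and 0.40 ± 0.35 on the log2 scale for Mg-ALN@Gel and ALN+Gel against Gel. Psme1, the alpha subunit of the same ring, had 0 counts in 7 libraries and 1 count in 2 Gel libraries. The annotation overlaps Psme1 with Emc9 (12 to 55 counts) on the opposite strand, and a further row annotated as similar to it had 1 to 10 counts. The level of Psme1 was not taken as measured here, and why its counts were so few was not tested.

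Psme3, the nuclear 11S activator, had 31.1, 45.1 and 52.4 CPM in Mg-ALN@Gel, 43.1, 58.9 and 48.6 CPM in ALN+Gel, against 50.7, 45.8 and 40.0 CPM in Gel. Groups overlapped, and the log2 fold change was −0.23 ± 0.23 in Mg-ALN@Gel relative to ALN+Gel and −0.09 ± 0.23 against Gel. Psme4, the large activator PA200, had 103, 149.9 and 135 CPM in Mg-ALN@Gel, 139, 139 and 155 CPM in ALN+Gel, against 128, 129 and 169 CPM in Gel. It too overlapped, and its log2 fold changes of 0.02 ± 0.21 in ALN+Gel against Gel and −0.14 ± 0.21 in Mg-ALN@Gel against Gel were the lowest of the members in each. Psmf1, known as an inhibitor of the core in vitro, had 36.2, 26.6 and 22.1 CPM in Mg-ALN@Gel, 32.1, 33.8 and 25.4 CPM in ALN+Gel, against 29.9, 24.5 and 28.1 CPM in Gel. All groups overlapped, at 0.04 ± 0.23 for Mg-ALN@Gel and 0.15 ± 0.23 for ALN+Gel against Gel.

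Other genes of the pathway were divided in direction. Of 15 proteasome partners, 0 passed the adjusted p in edgeR's test in any comparison. Positive log2 fold changes were found for 9 of 15 in ALN+Gel against Gel, 7 in Mg-ALN@Gel against Gel and 7 in Mg-ALN@Gel relative to ALN+Gel, and at an unadjusted p under 0.05 the counts were 0, 2 and 0, against 8.20%, 9.31% and 9.19% of all genes. DESeq2 and limma-voom also called 0 of them. Sem1, the smallest subunit of the lid, had 225, 93.8 and 105 CPM in Mg-ALN@Gel, 166, 70.5 and 77.9 CPM in ALN+Gel, against 81.1, 59.9 and 36.7 CPM in Gel. It was high in library 1 of both treated groups, Mg-ALN@Gel lay above Gel while ALN+Gel overlapped with it, and its log2 fold change was 1.25 ± 0.47 for Mg-ALN@Gel and 0.82 ± 0.47 for ALN+Gel against Gel. Txnl1, a thioredoxin-like protein that binds the 19S particle, was at 0.41 ± 0.18 and 0.28 ± 0.17 in the same order. Ecpas, a proteasome adaptor, was at −0.48 ± 0.24 in Mg-ALN@Gel relative to ALN+Gel.

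Pomp, the maturation factor of the core, had 4 to 28 counts, while LOC100911238, a row annotated as similar to it, had 171 to 1676, so the 2 rows may divide reads of near-identical copies. The log2 fold change of LOC100911238, chosen after its values were seen, was 2.01 ± 0.60 in Mg-ALN@Gel against Gel and 1.54 ± 0.60 in ALN+Gel against Gel (adjusted p = 0.530 and 0.571 in edgeR's test). Of 23 genes for ubiquitin and its delivery, 0 passed the adjusted p in edgeR's test, and 17 were positive in ALN+Gel against Gel, 13 in Mg-ALN@Gel against Gel and 16 in Mg-ALN@Gel relative to ALN+Gel. At an unadjusted p under 0.05 the counts were 2, 2 and 0, near or below the shares of all genes just given. DESeq2 called 0 of these genes, and limma-voom called 1 in ALN+Gel against Gel and 0 elsewhere. Rps27a, which encodes ubiquitin fused to a ribosomal protein, had 1143, 373 and 531 CPM in Mg-ALN@Gel, 582, 776 and 384 CPM in ALN+Gel, against 311, 223 and 193 CPM in Gel. Its treated libraries lay above Gel, at 1.49 ± 0.45 for Mg-ALN@Gel and 1.26 ± 0.45 for ALN+Gel.

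Genes that act beside the immunoproteasome had medians below 0 in both comparisons with Gel. Of 13 genes of MHC class I presentation, 5 were positive in ALN+Gel against Gel, 6 in Mg-ALN@Gel against Gel and 4 in Mg-ALN@Gel relative to ALN+Gel, with medians of −0.14, −0.08 and −0.12. Of 17 interferon-induced genes, 5, 7 and 10 were positive in the same order, with medians of −0.22, −0.17 and 0.10. None passed the adjusted p in edgeR's test or was called by DESeq2 or limma-voom, and at an unadjusted p under 0.05 there were 3 lower genes of the first list in Mg-ALN@Gel against Gel (Tapbp, Nlrc5 and Erap1) and 1 lower gene of the second in each comparison. Of all genes, 9.31% had such a p in either direction in Mg-ALN@Gel against Gel. In the first list, 2 genes were higher without overlap in ALN+Gel against Gel (11.1% of all genes) and 0 lower. In Mg-ALN@Gel against Gel, 2 were higher (9.76%) and 2 lower (8.56%). The list summed to 5332 ± 1534 CPM in Mg-ALN@Gel, 5203 ± 791 CPM in ALN+Gel and 4431 ± 711 CPM in Gel (SD, n = 3 each), with overlapping ranges. Nlrc5, a transactivator of MHC class I genes, averaged 6.63, 8.86 and 14.4 CPM in Mg-ALN@Gel, ALN+Gel and Gel, with a log2 fold change of −1.12 ± 0.46 in Mg-ALN@Gel against Gel. The groups overlapped for Nlrc5, with 7.97 CPM in Gel library 1 and 9.15 CPM in Mg-ALN@Gel library 3. Gbp2, a guanylate-binding protein, averaged 55.5, 38.7 and 111 CPM in the same groups and was at −1.52 ± 0.49 in ALN+Gel against Gel. Gbp2 had 34.1, 109 and 190 CPM in Gel, against 39.3, 41.2 and 35.8 CPM in ALN+Gel, so Gel library 1 lay below each ALN+Gel library.

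Markers of cell types moved with the treated groups in part. Osteoclast markers summed to 4061 to 13071 CPM in Mg-ALN@Gel, 22515 to 32997 CPM in ALN+Gel and 2511 to 19067 CPM in Gel, so ALN+Gel was above both other groups. All 14 tested osteoclast markers were positive in ALN+Gel against Gel (median 1.45), 0 of 14 in Mg-ALN@Gel relative to ALN+Gel (median −1.47) and 6 of 14 in Mg-ALN@Gel against Gel (median −0.10). The members' medians in these 3 comparisons were 0.39, 0.13 and 0.53 in the same order, and a link to the osteoclast markers was not tested. Macrophage markers summed to 1247 to 3067 CPM in Mg-ALN@Gel, 1714 to 2608 CPM in ALN+Gel and 1295 to 2479 CPM in Gel, lymphocyte markers to 206 to 290 CPM, 249 to 450 CPM and 273 to 454 CPM, and erythroid markers to 214 to 6355 CPM, 1055 to 8750 CPM and 467 to 6124 CPM, in the same groups. The 8 tested skeletal muscle markers had medians of −1.06 in ALN+Gel against Gel and −4.59 in Mg-ALN@Gel against Gel, with Gel library 3 holding most of the signal. Nuclear genes of oxidative phosphorylation were positive in 18 of 19 in ALN+Gel against Gel (median 0.75), in 15 of 19 in Mg-ALN@Gel against Gel (0.21) and in 0 of 19 in Mg-ALN@Gel relative to ALN+Gel (−0.60). Immediate early genes, which answer to stress and handling, were positive in 0 of 13 (−0.92), 9 of 13 (0.26) and 13 of 13 (1.06) in the same order. Without the 2 libraries of over 30% mitochondrial counts the members' median was 0.20 in ALN+Gel against Gel, with 41 of 45 positive, 0.58 in Mg-ALN@Gel against Gel, with 42, and 0.36 in Mg-ALN@Gel relative to ALN+Gel, with 41. At an unadjusted p under 0.05 in edgeR's test, that fit had 0, 22 and 1 members, against 3.5%, 10.3% and 6.91% of all genes. Adjusting each library for its mitochondrial share gave 1, 15 and 1 such members (4.57%, 9.18% and 9.5% of all genes). Medians in that adjusted fit were 0.29, 0.45 and 0.17. For ALN+Gel against Gel the count was thus lower in both than the 11 members (8.20% of all genes) of the reported fit. With the osteoclast score as a covariate the medians were 0.60, 0.50 and −0.05 in the same order. That score, computed from the same libraries, was 0.98 to 1.36 in ALN+Gel, at most 0.58 in Gel and at most 0.09 in Mg-ALN@Gel. The fit with it therefore cannot tell osteoclast content from the ALN+Gel treatment. The part of cell composition in the members' values was not tested.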

How the data were processed

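Per the labels' protocols, poly-A RNA was bound to poly-T beads, primed with random hexamers and size-selected, and no marking of strand is mentioned. The authors deposited whole-number read counts per gene, without normalization, and FPKM values. Checked against the counts, each deposited FPKM value was the count over gene length and 1 constant per library, which already scales between libraries. Alignment and counting tools named in the submitters' processing notes include featureCounts 1.5.0-p3 and HISAT2 2.0.5, with no roles, and the build is not given in the sources used here.

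Counts were fitted in R 4.3.3 with edgeR 4.0.16 (filterByExpr, TMM, quasi-likelihood with 1 coefficient per group over all 9 libraries, two-sided, Benjamini-Hochberg over 15460 genes, threshold 0.05). Alternatives used DESeq2 1.42.0, limma 3.58.1 (voom with quality weights), other scalings, no filter, covariates and left-out libraries. The fit was also run on simulated counts, drawn independently for each library, with changes placed only in ALN+Gel. That simulation held no differences in mitochondrial share or cell markers between libraries, so it cannot vouch for the fit under them. A standard error is the log2 fold change over the root of the F statistic. TPM was computed from the counts and the deposited gene lengths. No 2 libraries agreed within sampling noise (lowest chi-square per degree of freedom 75.8).

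Deviations from the group means correlated over genes between same-numbered libraries of ALN+Gel and Gel (r = 0.341, 0.419 and 0.226), so the numbers met the criterion for pairs in that comparison (every r over 0.1). The values in the results are from the fit without the block. They did not pair Mg-ALN@Gel with ALN+Gel (0.130, −0.120 and −0.127) or with Gel (−0.0767, −0.0452 and −0.199). The pairing comes from this correlation only, since no label says what a number marks. With the replicate block no member and no gene was called, as without it.

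Members and lists were chosen with earlier results of these data known. Named were the 6 catalytic subunits, Psme1 and Psme2, the 4 members with the highest and the 4 with the lowest log2 fold change in each comparison, members not tested, and up to 3 genes per pathway list with low p-values. One gene that this rule names is not reported here. Psma2, Psmc5, Psmd1, Psmd4 and Psmd14 were added after their values were seen. Of the marker lists, 1 erythroid and 1 skeletal muscle entry matched no gene.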

Additional observations from a re-analysis of the deposited data

How the results depend on the processing

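Calls over all genes depended on the tool. Against 0 genes with edgeR, DESeq2 called 133 in ALN+Gel against Gel, 184 in Mg-ALN@Gel relative to ALN+Gel, 51 in Mg-ALN@Gel against Gel and 247 in the joint test, and limma-voom called 263, 2, 0 and 28. Leaving out 1 library gave 0 to 1 in ALN+Gel against Gel and in the joint test, the 1 being without ALN+Gel library 3. Members called stayed at 0 under each alternative run. With the replicate block the members' medians were 0.29 in ALN+Gel against Gel, 0.13 in Mg-ALN@Gel relative to ALN+Gel and 0.51 in Mg-ALN@Gel against Gel, and the block changed no call. In ALN+Gel against Gel, 14 members had an unadjusted p under 0.05 with the block, where 9.93% of all genes did. Without the block these were 11 members and 8.20% of all genes, both from edgeR's test. With the osteoclast score as covariate the median was 0.60 in ALN+Gel against Gel and −0.0510 in Mg-ALN@Gel relative to ALN+Gel. Without the 2 libraries of over 30% mitochondrial counts, a choice made after seeing the data, it was 0.20 and 0.36.

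Members not listed here also changed sign. With the osteoclast score as covariate, 18 of 45 members were positive in Mg-ALN@Gel relative to ALN+Gel, against 34 in the reported fit. Among the members that the rule above names in a comparison, signs turned for those below, and the cause was not tested. Some were over 0.2 in size in the reported fit. In Mg-ALN@Gel relative to ALN+Gel these were Psmd5 (−0.46), Psmd9 (0.46), Psme3 (−0.23), Psme2 (0.20) and Psmg3 (0.49), and in Mg-ALN@Gel against Gel it was Psmb10 (0.31). In ALN+Gel against Gel, DESeq2 gave −0.00196 for Psmd2 and −0.0207 for Psme4, RLE scaling −0.00191 for Psmd2 and −0.0207 for Psme4, and the osteoclast covariate −0.0315 for Psmd2 and −0.00160 for Psme4. Without the low-count filter the values were −0.0309 for Psmd2, −0.00755 for Psmd3, −0.00482 for Psmd7 and −0.0501 for Psme4, and limma-voom gave −0.0236 for Psme4. For Mg-ALN@Gel relative to ALN+Gel, limma-voom gave −0.142 for Psmb7, −0.104 for Psmb9 and −0.297 for Psmb10. The osteoclast covariate there gave −0.200 for Psmb7, −0.0602 for Psmb8, −0.598 for Psmb9, −0.555 for Psmb10, 0.0884 for Psmd5, −0.0798 for Psmd9, −0.333 for Psme2 and 0.276 for Psme3. In Psmb10 the replicate block gave −0.00754 and upper-quartile scaling −0.000554. For Mg-ALN@Gel against Gel, limma-voom gave −0.0516 for Psmb10, 0.101 for Psme3 and −0.0765 for Psmf1.

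Without ALN+Gel library 2, 37 of 45 members were positive in ALN+Gel against Gel. The ranges below are only for the named members whose sign turned. Leaving out 1 library at a time in ALN+Gel against Gel, the log2 fold change ran from −0.00733 to 0.0712 for Psmd7, −0.0953 to 0.121 for Psmd3, −0.0787 to 0.0872 for Psmd2 and −0.101 to 0.109 for Psme4. For Mg-ALN@Gel relative to ALN+Gel it ran from −0.209 to 0.297 for Psmb7, −0.284 to 0.502 for Psmb9, −0.432 to 0.265 for Psmb10, −0.120 to 0.594 for Psme2, −0.118 to 0.913 for Psmg3, −0.318 to 0.0447 for Psmb6, −0.280 to 0.0280 for Psma1 and −0.228 to 0.421 for Psmb8. For Mg-ALN@Gel against Gel it ran from −0.132 to 0.504 for Psmb10, −0.173 to 0.189 for Psmf1, −0.257 to 0.101 for Psme3, −0.286 to 0.00438 for Psme4 and −0.511 to 0.276 for Psmd10. Psmd10, Psme1, Psma8 and Psmb11 had few or no counts, and the cause was not tested.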
